A study of Mus musculus with 6 samples.

Results

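The 10 genes described here are linked to macrophages in mouse tissue, most as markers and Csf1 as a ligand that other cells also make. Which cells of the grafts made each transcript was not tested. The genes are Emr1 (the gene of the surface antigen F4/80), Csf1r, Csf1, Cd68, Mrc1, Arg1, Cd163, Fcgr1, Msr1 and Mpeg1. They were taken by gene symbol from the authors' comparison table and joined by gene identifier to the counts of each library, which gave all 10 among 39179 gene identifiers. The rule of choice uses names and no measured value, but the members were named with earlier results of these data known. The libraries are RNA-seq of whole tumour grafts in FVB mice, 3 labelled AXL KO and 3 labelled WT. All grafts were of MMTV-Neu tumour cells, which carry a transgene with the Neu (ErbB2) oncogene under the mouse mammary tumour virus promoter, active in mammary epithelium. In the AXL KO group the cells were AXL-/-, without the TAM family receptor kinase AXL, and in the WT group they were AXL+/+. The genotype names the grafted cells. The Axl genotype of the host mice, their age and the time of growth are not stated in the labels, nor is it stated whether 1 tumour line gave both kinds of cells or how many clones were used. Macrophages in such a graft come from the host, and the libraries also hold transcripts of tumour cells, vessels, fibroblasts and other leukocytes.

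Macrophages depend on colony-stimulating factor 1 (CSF1), a cytokine made by many stromal and tumour cells, which acts through the receptor tyrosine kinase CSF1R on monocytes and macrophages. Tissue macrophages display F4/80 and carry lysosomal CD68, and they take up particles and damaged molecules through the mannose receptor MRC1, the scavenger receptors MSR1 and CD163, and Fc receptors that bind antibody-coated targets. Arginase 1 and MRC1 are used as marks of alternative activation, the state driven by interleukin 4 in culture, whereas the high-affinity Fc receptor FCGR1 is a textbook target of interferon gamma. AXL itself is known in macrophages as a receptor for the clearance of dying cells.

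RefSeq promoter windows of 250 bases before the annotated start (build GRCm38.p6) were at hand for 6 of the 10 genes: Csf1, Cd68, Mrc1, Cd163, Fcgr1 and Mpeg1. Both strands were searched for the interferon-gamma activation site TTCNNNGAA, a part of the interferon-stimulated response element written GAAANNGAA, the core GAGGAA bound by the myeloid factor PU.1, the hypoxia core ACGTG and the TATA box TATAAA. These letters occur in 7.02%, 7.13%, 23.3%, 16.6% and 12.4% of 32851 RefSeq promoter windows of the same length, in that order. Fcgr1 (chr3:96293970-96294219, minus strand), Mrc1 (chr2:14229164-14229413, plus strand) and Cd68 (chr11:69666171-69666420, minus strand) held a match and are shown, 5' to 3' on the gene's strand, with the matches in capitals. TTCCTC is GAGGAA read on the other strand.
Fcgr1: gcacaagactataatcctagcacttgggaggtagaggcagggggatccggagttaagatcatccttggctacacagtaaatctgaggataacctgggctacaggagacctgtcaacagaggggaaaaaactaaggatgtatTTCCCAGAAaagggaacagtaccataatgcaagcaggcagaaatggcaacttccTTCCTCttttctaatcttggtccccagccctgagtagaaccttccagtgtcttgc
Mrc1: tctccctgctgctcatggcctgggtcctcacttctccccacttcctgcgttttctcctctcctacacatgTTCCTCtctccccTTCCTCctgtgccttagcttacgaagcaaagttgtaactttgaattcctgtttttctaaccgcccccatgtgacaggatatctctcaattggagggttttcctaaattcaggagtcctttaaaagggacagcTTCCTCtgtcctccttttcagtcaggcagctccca
Cd68: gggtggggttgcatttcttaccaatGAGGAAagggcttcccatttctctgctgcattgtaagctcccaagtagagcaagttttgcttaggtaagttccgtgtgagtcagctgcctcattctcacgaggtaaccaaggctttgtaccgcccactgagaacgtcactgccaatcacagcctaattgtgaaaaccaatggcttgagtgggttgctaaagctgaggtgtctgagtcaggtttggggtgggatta
In Fcgr1 the activation site TTCCCAGAA lay 109 to 101 bases before the start, and the PU.1 core 55 to 50 bases before it. Mrc1 had the PU.1 core 3 times, beginning 180, 167 and 35 bases before the start, and Cd68 had it once, beginning 225 bases before the start. No match overlapped another. The windows of Csf1, Cd163 and Mpeg1 held none of these letters. A match of letters is a description of the window and does not show that a factor was bound in these grafts.

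Each library had 26541009 to 32491807 counts in genes, and levels are given as CPM, counts relative to library size, scaled by TMM, the edgeR normalisation for library composition. Libraries of a group differed from each other by 0.300 to 0.401 (root mean square of log2 CPM over tested genes) and libraries of different groups by 0.665 to 0.886. Axl, the targeted gene, was at 48.2, 74.0 and 58.1 CPM in the libraries labelled AXL KO and at 70.2, 58.5 and 52.6 CPM in those labelled WT. Its log2 fold change was -0.01 ± 0.16 (SE), at an adjusted p of 0.978 in the edgeR quasi-likelihood test with Benjamini-Hochberg adjustment. The part of Axl that was deleted is not stated in the labels and host cells can add Axl transcripts, so these counts do not check the labels, and each direction below is between libraries labelled AXL KO and libraries labelled WT. Nothing in the labels says that replicates came from separate animals or cultures. The p-values are thus set against a spread between samples that may be smaller than that between animals or cultures.

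Of the 10 macrophage genes, 4 rose in the libraries labelled AXL KO: Fcgr1, Arg1, Mpeg1 and Csf1. None was called lower at an adjusted p under 0.05, and 6 did not pass the test. All 10 passed the filter on low counts. Over the 14850 genes tested, 37.4% were called in either direction, 19.1% higher and 18.3% lower, so that 4 called genes of 10 lay close to the share over all genes. The members' median log2 fold change was 0.24, beside 0.000318 over all tested genes. The libraries of the groups did not overlap for 5 members, all with AXL KO above WT (Csf1, Emr1, Fcgr1, Arg1 and Mpeg1), beside 26.9% of tested genes not overlapping in that direction and 25.2% in the other. At an unadjusted p under 0.05 the same test named those 5 and no member lower, and DESeq2 and limma-voom also called 0 members lower. In bulk tissue, a change in the number of cells of a type and a change in RNA per cell cannot be told apart.

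**Figure D1:**
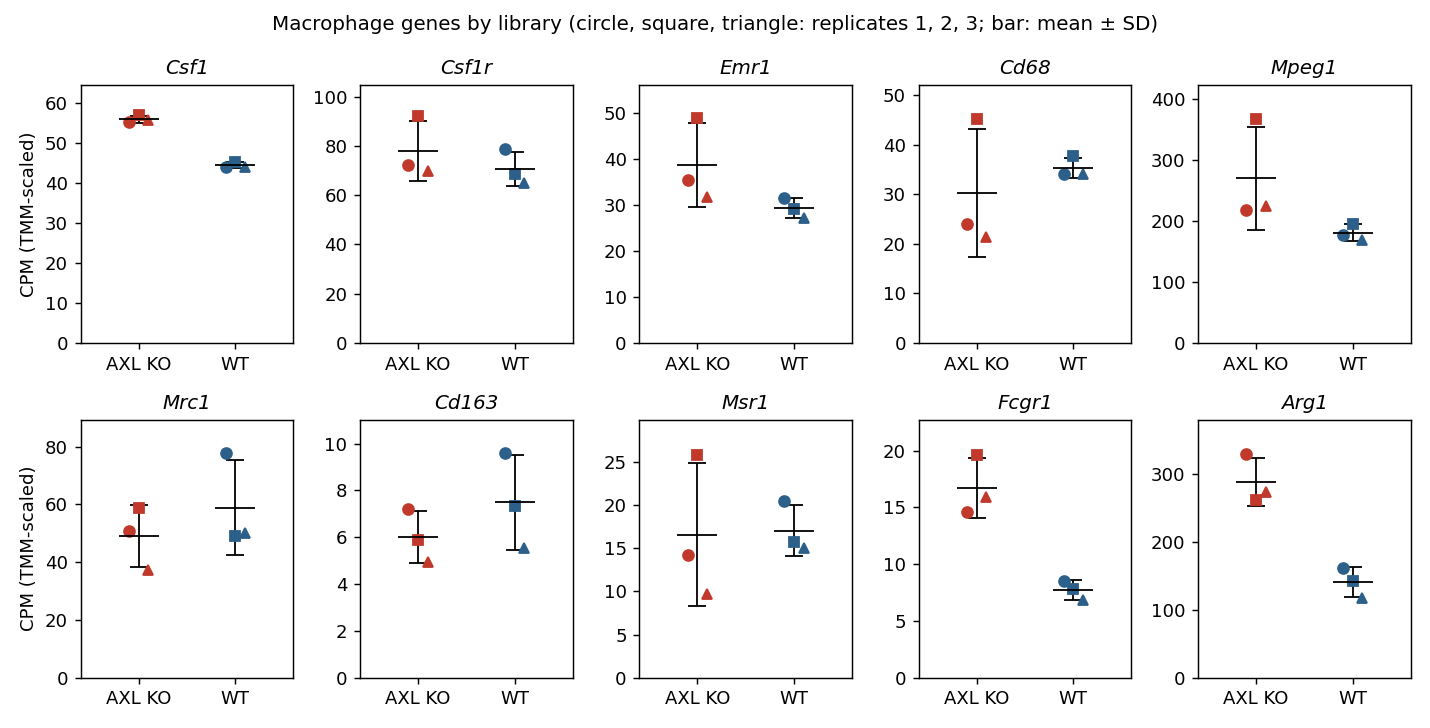
Level of each macrophage gene in each library, in TMM-scaled CPM on a linear axis from 0, with AXL KO left of WT. Circles, squares and triangles are replicates 1, 2 and 3, and bars are mean ± SD over 3 libraries. Csf1, Emr1, Mpeg1, Fcgr1 and Arg1 have all AXL KO libraries above all WT libraries, and AXL KO 2 is the highest of the AXL KO libraries for 8 of the 10 genes.

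The ligand passed the test and its receptor did not. Csf1, the growth factor (ENSMUSG00000014599, chromosome 3, 107741048 to 107760469, minus strand, GRCm38), was at 55.2, 57.0 and 55.8 CPM in AXL KO grafts and at 43.9, 45.4 and 44.1 CPM in WT grafts. The libraries of each group lay within a few percent of each other and the groups were well separated. Csf1 rose 1.26-fold, 0.33 ± 0.07 on the log2 scale (SE, n = 3 each), at an edgeR quasi-likelihood adjusted p (Benjamini-Hochberg) of 0.00537. Csf1r, its receptor (ENSMUSG00000024621, chromosome 18, 61100598 to 61132149, plus strand), had 72.3, 92.1 and 69.9 CPM in AXL KO grafts and 78.6, 68.5 and 64.9 CPM in WT grafts. Its groups overlapped, with AXL KO 2 highest and the other AXL KO libraries among the WT values. The log2 fold change of Csf1r was 0.14 with a 95% interval of -0.13 to 0.42, and the edgeR Benjamini-Hochberg adjusted p was 0.376. Exons of Csf1r overlap those of the antisense gene Hmgxb3, which had 1058, 1085 and 1169 counts in AXL KO grafts and 922, 1124 and 963 counts in WT grafts. Whether the counting used strand is not given in the sources used here, so how reads on the shared exons were counted is not known. Reads that the authors' counting marked as ambiguous are in neither gene's count. The difference between the changes of Csf1 and Csf1r was not tested as such.

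Emr1, the F4/80 gene (ENSMUSG00000004730, chromosome 17, 57358691 to 57483527, plus strand), was at 35.3, 48.9 and 31.7 CPM in AXL KO grafts and at 31.6, 29.0 and 27.2 CPM in WT grafts. The lowest AXL KO library stood just above the highest WT library, and AXL KO 2 stood well above the rest. The 1.32-fold difference, 0.40 ± 0.15 on the log2 scale (SE, n = 3 each), did not pass the edgeR test with Benjamini-Hochberg adjustment (adjusted p = 0.0659). Without AXL KO 2 the log2 fold change was 0.20 and it was not called, without AXL KO 3 it was 0.53 and edgeR called it (Benjamini-Hochberg adjusted p = 0.0306), and with no filter on low counts edgeR called it at 0.0396. In the authors' deposited table Emr1 has a log2 fold change of 0.39 (sign turned round to AXL KO over WT) and an adjusted p of 0.0426. That table calls 5 of the 10 genes, Emr1 beside the 4 named above, against 33.4% of all genes with an adjusted p in the authors' deposited table. The call of Emr1 therefore depends on the model.

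Mpeg1, which codes for the pore-forming perforin-2 of phagocytes (ENSMUSG00000046805, chromosome 19, 12460779 to 12465283, plus strand), was at 217, 368 and 224 CPM in AXL KO grafts and at 177, 196 and 169 CPM in WT grafts. The groups did not overlap, and AXL KO 2 stood far above the other libraries. Mpeg1 rose 1.50-fold, 0.58 ± 0.19 on the log2 scale (SE, n = 3 each), at an edgeR adjusted p (Benjamini-Hochberg) of 0.0362. The call was lost without WT 1, WT 2 or WT 3 (edgeR Benjamini-Hochberg adjusted p of 0.0735, 0.0543 and 0.117), and without AXL KO 2 the log2 fold change was 0.29 at an adjusted p of 0.0349. Cd68, the lysosomal membrane glycoprotein (ENSMUSG00000018774, chromosome 11, 69664213 to 69666153, minus strand), had 24.0, 45.1 and 21.4 CPM in AXL KO grafts and 34.1, 37.7 and 34.0 CPM in WT grafts. AXL KO 2 was the highest of all 6 libraries and the other AXL KO libraries were the lowest. With all libraries the log2 fold change of Cd68 was -0.22 ± 0.24 (SE, n = 3 each; edgeR Benjamini-Hochberg adjusted p = 0.495). Without AXL KO 2 it was -0.63 and passed the edgeR test at a Benjamini-Hochberg adjusted p of 0.00199, so 1 library decides whether Cd68 is called lower.

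**Figure D2:**
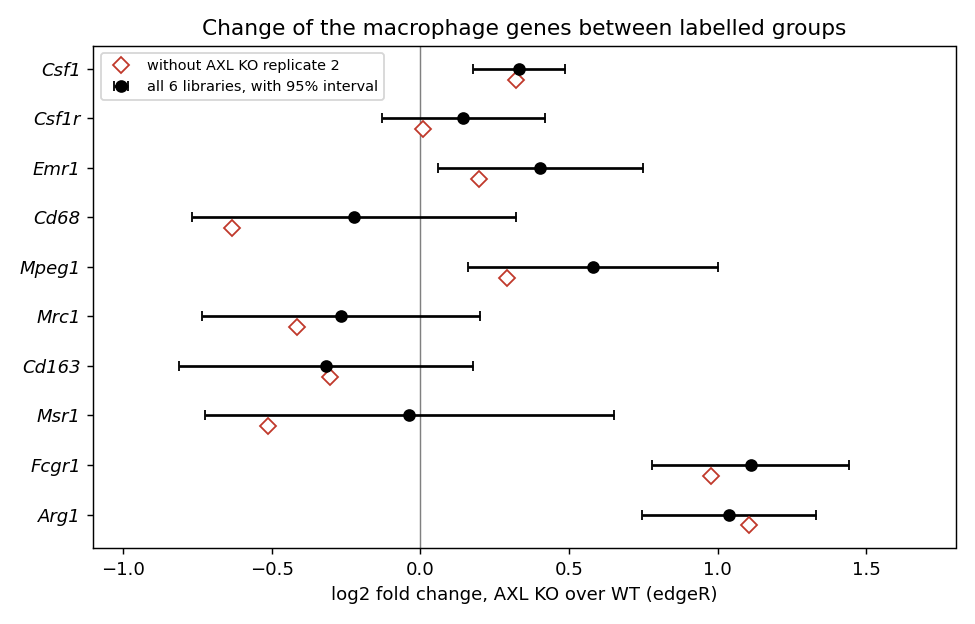
Log2 fold change, AXL KO over WT, of the 10 macrophage genes from the edgeR fit. Filled circles with bars are all 6 libraries with the 95% interval, and open diamonds are the fit without AXL KO 2, in which Cd68 is at -0.63 and Msr1 at -0.51 while Csf1, Fcgr1 and Arg1 stay well above 0.

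The mannose receptor and the scavenger receptors did not pass the test in either direction. Mrc1, the macrophage mannose receptor also called CD206 (ENSMUSG00000026712, chromosome 2, 14229392 to 14332057, plus strand), had 50.9, 58.6 and 37.4 CPM in AXL KO grafts and 77.8, 49.0 and 50.0 CPM in WT grafts. WT 1 stood above the other libraries, AXL KO 3 below them, and the other 4 lay together. Its log2 fold change was -0.27 ± 0.21 (SE, n = 3 each; edgeR Benjamini-Hochberg adjusted p = 0.337). Cd163, the receptor for haptoglobin-bound haemoglobin (ENSMUSG00000008845, chromosome 6, 124304656 to 124330527, plus strand), was at 7.19, 5.90 and 4.96 CPM in AXL KO grafts and 9.61, 7.34 and 5.55 CPM in WT grafts. Its groups overlapped, again with WT 1 highest and AXL KO 3 lowest, and its log2 fold change was -0.32 ± 0.22 (SE, n = 3 each; edgeR Benjamini-Hochberg adjusted p = 0.282). Without WT 1 the log2 fold changes of Mrc1 and Cd163 were -0.02 and -0.10, and without AXL KO 3 they were -0.10 and -0.19. Msr1, the class A scavenger receptor (ENSMUSG00000025044, chromosome 8, 39581685 to 39642673, minus strand), had 14.2, 25.8 and 9.76 CPM in AXL KO grafts and 20.4, 15.7 and 15.1 CPM in WT grafts. The WT libraries lay between AXL KO 2, the highest, and the other AXL KO libraries, the lowest. Its log2 fold change was -0.04 with a 95% interval of -0.72 to 0.65 (edgeR Benjamini-Hochberg adjusted p = 0.934). Its sign turned without AXL KO 1 (0.07), without AXL KO 3 (0.24) and without WT 1 (0.11), and without AXL KO 2 it was -0.51. With intervals this wide, differences of the size seen for Mpeg1 were not detectable for Msr1.

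Fcgr1, the high-affinity receptor for immunoglobulin G (ENSMUSG00000015947, chromosome 3, 96282909 to 96293969, minus strand), was at 14.6, 19.7 and 15.9 CPM in AXL KO grafts and at 8.54, 7.84 and 6.84 CPM in WT grafts. Every AXL KO library was well above every WT library. Fcgr1 rose 2.16-fold (95% interval 1.72 to 2.72), or 1.11 ± 0.15 on the log2 scale (SE, n = 3 each), at an edgeR Benjamini-Hochberg adjusted p of 0.000656. Among the 6 members with a promoter window, it is the one that held the interferon-gamma activation site. A list of 8 interferon-gamma targets moved with it: all 8 rose, by a median of 2.61 on the log2 scale, and their summed level was 1102 to 1268 CPM in AXL KO grafts and 172 to 238 CPM in WT grafts. Among them Psmb9, an immunoproteasome subunit, rose 12.0-fold, Irgm1, an immunity-related GTPase, 6.77-fold, and Irf1, a transcription factor, 2.41-fold. The part of these genes' change in that of Fcgr1 was not tested.

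The other receptors for immunoglobulin G did not all move with Fcgr1. Fcgr4, an activating receptor of the mouse, rose 1.73-fold, to 3.86 ± 0.763 CPM in AXL KO grafts, against 2.23 ± 0.115 CPM in WT grafts (SD, n = 3 each; edgeR Benjamini-Hochberg adjusted p = 0.0115). Fcgr2b, the inhibitory receptor, had 15.7 ± 6.12 CPM in AXL KO grafts and 23.1 ± 3.81 CPM in WT grafts, and Fcgr3, a low-affinity activating receptor, had 21.1 ± 8.50 CPM in AXL KO grafts and 23.5 ± 3.91 CPM in WT grafts (SD, n = 3 each). Neither passed the test, but without AXL KO 2 both were called lower, Fcgr2b at -0.90 and Fcgr3 at -0.53 (edgeR Benjamini-Hochberg adjusted p of 0.00513 and 0.0239). Fcer1g, the shared signalling chain, had a log2 fold change of 0.30 that did not pass and was called higher without WT 1 (0.47). Of the 5 receptors and chains on this list, 2 rose and none was called lower by edgeR, while DESeq2 called 1 lower, Fcgr2b (-0.56, Benjamini-Hochberg adjusted p = 0.0456), and the list's median was 0.30 on the log2 scale.

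Arg1, the enzyme that splits arginine into ornithine and urea (ENSMUSG00000019987, chromosome 10, 24915221 to 24927484, minus strand), was at 329, 262 and 274 CPM in AXL KO grafts and at 162, 142 and 118 CPM in WT grafts. Every AXL KO library stood above every WT library, and AXL KO 1 rather than AXL KO 2 was the highest. Arg1 rose 2.05-fold (95% interval 1.68 to 2.51), or 1.04 ± 0.13 on the log2 scale (SE, n = 3 each), at an edgeR Benjamini-Hochberg adjusted p of 0.000483. It was the single gene of 9 on the arginine metabolism list that rose, and 3 fell. Odc1, which turns ornithine into putrescine, fell to 28.6 ± 3.28 CPM in AXL KO grafts, against 53.8 ± 9.24 CPM in WT grafts (SD, n = 3 each). Oat, the mitochondrial ornithine aminotransferase, fell 1.44-fold and Ass1, the argininosuccinate synthase, 1.32-fold, and the call of Ass1 was lost without AXL KO 1, AXL KO 3, WT 2 or WT 3 (edgeR Benjamini-Hochberg adjusted p of 0.129, 0.0825, 0.103 and 0.128). Nos2, the inducible nitric oxide synthase that uses the same substrate, was at 1.63 ± 0.619 CPM in AXL KO grafts and 2.76 ± 1.35 CPM in WT grafts (SD, n = 3 each) and did not pass. The list's median log2 fold change was -0.40.

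AXL KO 2 stood apart for many of these genes. It had the highest CPM of all 6 libraries for 7 of the 10 members, beside 11.8% of the tested genes. Its level over the mean of AXL KO 1 and AXL KO 3 was 2.16-fold for Msr1, 1.98-fold for Cd68, 1.67-fold for Mpeg1, 1.46-fold for Emr1, 1.33-fold for Mrc1, 1.30-fold for Csf1r and 1.29-fold for Fcgr1. Csf1 at 1.03, Cd163 at 0.971 and Arg1 at 0.869 did not share that excess. Markers of stromal cells were also higher in AXL KO 2 than in AXL KO 1 and AXL KO 3, though not above the WT range. In AXL KO 1, AXL KO 2 and AXL KO 3 the fibroblast markers summed to 759, 1383 and 796 CPM, the pericyte markers to 91.1, 154 and 101 CPM and the endothelial markers to 136, 184 and 154 CPM. In WT grafts these sums were 1108 to 1738, 219 to 235 and 228 to 262 CPM, in that order. AXL KO 2 thus lay within the WT range for fibroblast markers and below it for pericyte and endothelial markers. The part of these markers in the excess of AXL KO 2 was not tested. Over all tested genes AXL KO 2 was also the AXL KO library nearest to the WT libraries. With or without it, Csf1, Arg1 and Fcgr1 were called higher, as they were in each of 13 alternative fits at an adjusted p under 0.05.

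Levels were compared between genes per kilobase of annotated exon. Arg1 was the highest at 130 ± 16.0 CPM per kb in AXL KO grafts and 63.1 ± 9.91 CPM per kb in WT grafts, followed by Mpeg1 at 62.3 ± 19.6 CPM per kb in AXL KO grafts and 41.6 ± 3.22 CPM per kb in WT grafts, and by Cd68 at 24.0 ± 10.3 CPM per kb in AXL KO grafts and 28.1 ± 1.66 CPM per kb in WT grafts (SD, n = 3 each). These genes held the top of the order in both groups without overlap between neighbours. In AXL KO grafts Csf1r (13.5), Emr1 (11.9) and Csf1 (10.6 CPM per kb) came next with overlapping libraries, then Mrc1 (7.68) and Fcgr1 (6.45 CPM per kb), also overlapping, then Msr1 (2.61) and Cd163 (1.10 CPM per kb). In WT grafts Csf1r (12.2), Mrc1 (9.25), Emr1 (9.04) and Csf1 (8.42 CPM per kb) overlapped from neighbour to neighbour, as did Fcgr1 (2.99) and Msr1 (2.69 CPM per kb), and Cd163 (1.37 CPM per kb) was again the lowest. Fcgr1 overlapped Msr1 in WT grafts and stood above it in every AXL KO library. Exon length is that of the annotation and takes no account of which transcripts were present.

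Each gene's count was also divided by the count of Emr1 in the same library, which is free of library scaling. Fcgr1 per Emr1 count was 0.412, 0.402 and 0.502 in AXL KO grafts and 0.270, 0.270 and 0.252 in WT grafts. Arg1 per Emr1 count was 9.32, 5.36 and 8.65 in AXL KO grafts and 5.12, 4.89 and 4.33 in WT grafts. For both, AXL KO lay above WT in every library, by a wide gap for Fcgr1 and with AXL KO 2 just above WT 1 for Arg1. Cd68 per Emr1 count was 0.681, 0.920 and 0.676 in AXL KO grafts and 1.08, 1.30 and 1.25 in WT grafts. Mrc1 per Emr1 count was 1.44, 1.20 and 1.18 in AXL KO grafts and 2.46, 1.69 and 1.84 in WT grafts. Csf1r per Emr1 count was 2.05, 1.88 and 2.21 in AXL KO grafts and 2.49, 2.36 and 2.39 in WT grafts. Each of these lay below WT in every AXL KO library, AXL KO 2 included.

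Msr1 per Emr1 count was 0.401, 0.528 and 0.308 in AXL KO grafts and 0.647, 0.540 and 0.555 in WT grafts, and Cd163 per Emr1 count was 0.204, 0.121 and 0.156 in AXL KO grafts and 0.304, 0.253 and 0.204 in WT grafts. Both were also lower in every AXL KO library, but AXL KO 2 and WT 2 nearly met for Msr1, and AXL KO 1 and WT 3 for Cd163. Csf1 and Mpeg1 overlapped. Of the 9 ratios, 5 thus lay below WT and 2 above, beside 41.9% of tested genes below and 4.93% above when divided in the same way. All ratios share the Emr1 count, whose own CPM was above WT in every AXL KO library, so a lower ratio is no evidence that a gene fell. With Csf1r as the denominator instead, a choice made after seeing the data, Fcgr1, Arg1, Mpeg1 and Emr1 lay above WT in every library, Mrc1 lay below, and Csf1, Cd68, Cd163 and Msr1 overlapped, beside 8.81% of tested genes above and 27.1% below.

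**Figure D3:**
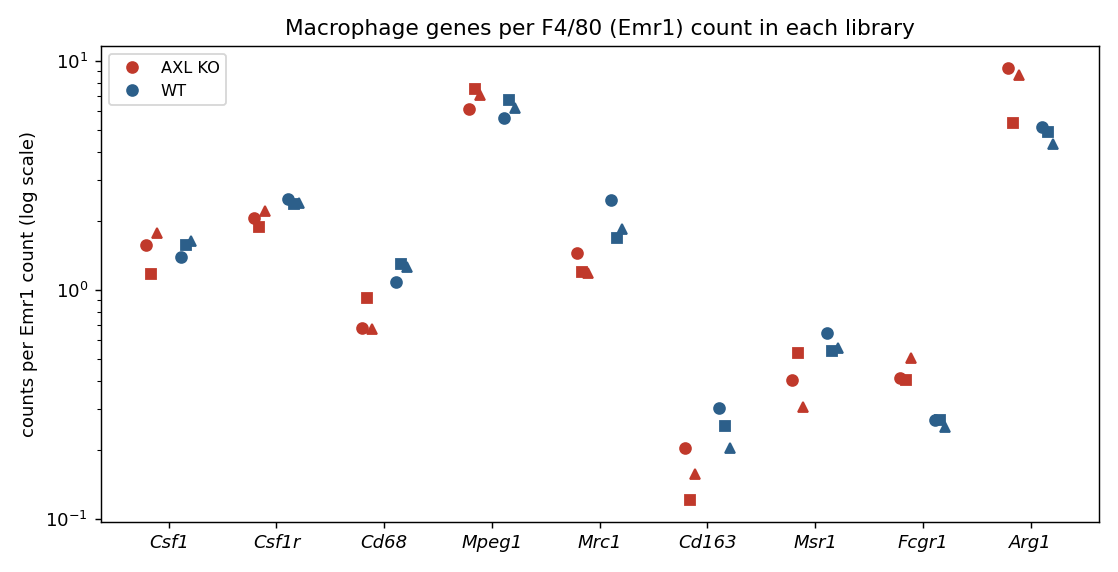
Counts of 9 macrophage genes per Emr1 count in each library, on a log axis, with AXL KO left of WT. Circles, squares and triangles are replicates 1, 2 and 3. Fcgr1 and Arg1 lie above WT in all AXL KO libraries, Csf1r, Cd68, Mrc1, Cd163 and Msr1 lie below, and Csf1 and Mpeg1 overlap.

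Likeness between members was measured as the root mean square difference of their log2 CPM, each centred on its mean over the 6 libraries. The closest pairs were Emr1 and Csf1r (0.139), Emr1 and Mpeg1 (0.140), Csf1 and Csf1r (0.173) and Csf1 and Emr1 (0.190). Next came Mrc1 and Cd163 (0.197), Cd68 and Msr1 (0.215) and Arg1 and Fcgr1 (0.224). Many genes lay nearer to Csf1: among genes whose log2 CPM averaged 2 or more, Csf1r ranked 3871 and Emr1 4577. From Csf1r, Emr1 ranked 619 and Csf1 1929, and from Emr1, Csf1r ranked 53 and Csf1 327. The pairs Emr1 and Mpeg1, Mrc1 and Cd163, Cd68 and Msr1, and Arg1 and Fcgr1 ranked from 13 to 164 from either side. Among genes whose log2 CPM averaged 2 or more, the gene nearest to Emr1 was Myo1f (0.0483) and then Nckap1l (0.0584), a myosin and a component of the WAVE complex of blood cells, and the nearest to Csf1r was Nfam1 (0.0305). The nearest to Msr1 were Gp49a (0.112), Fcgr3 (0.120) and Ms4a7 (0.165), and the nearest to Mpeg1 was Parvg (0.0902). Cd68 was nearest to Parvb (0.107), Mrc1 to Cpxm1 (0.0929) and Cd163 to BC034090 (0.122). Arg1 was nearest to Myo1g (0.0717), and Fcgr1 to Tmem140 (0.104), Casp12 (0.114) and Ifi203 (0.122). Csf1 was nearest to Rab3gap1 (0.0175), a gene of vesicle traffic. These are likenesses over 6 libraries of 2 groups, and any gene with a similar difference between groups comes out near.

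The wider pathway was read from fixed lists. Of 11 tested receptors, ligands and lineage factors of the colony-stimulating factors, Csf1 rose and 3 fell, and the list's median was -0.15 on the log2 scale. Il34, the other ligand of CSF1R, fell to 3.75 ± 0.528 CPM in AXL KO grafts, against 7.00 ± 1.27 CPM in WT grafts (SD, n = 3 each; edgeR Benjamini-Hochberg adjusted p = 0.0055). The transcription factor Cebpa, which acts in the myeloid lineage, fell 1.42-fold, whereas Spi1, which codes for PU.1, had a log2 fold change of 0.29 that did not pass. Thus Csf1 and Il34, ligands of the same receptor, were called in opposite directions. Csf2 and Csf3 had 7 and 17 counts over all libraries and were not tested.

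Among 9 tested scavenger receptors none was called higher and 3 fell, and the list's median was -0.32 on the log2 scale. Scara5, a ferritin receptor found on stromal and epithelial cells, fell 2.06-fold, Scarb1, the HDL receptor, 1.52-fold, and Stab1, a receptor of macrophages and sinusoidal endothelium, 1.42-fold. The call of Stab1 was lost without AXL KO 1 or AXL KO 3 (edgeR Benjamini-Hochberg adjusted p of 0.0571 and 0.0593). Endothelial markers moved with this list, and all 5 fell. Their summed level was 136 to 184 CPM in AXL KO grafts and 228 to 262 CPM in WT grafts. Among these markers, Kdr lost its call without AXL KO 1, AXL KO 3, WT 2 or WT 3. Its edgeR Benjamini-Hochberg adjusted p was then 0.0645 to 0.108. The part of the endothelial markers in the list's change was not tested. Of 8 mannose receptor family members and lectins, Ly75 rose 2.89-fold, to 4.93 ± 0.680 CPM in AXL KO grafts, against 1.70 ± 0.423 CPM in WT grafts (SD, n = 3 each). Ly75 is DEC-205, an uptake receptor of dendritic cells, and of 7 dendritic cell markers 5 rose, with a summed level of 14.0 to 16.2 CPM in AXL KO grafts and 9.07 to 10.2 CPM in WT grafts. The part of dendritic cells in the change of Ly75 was not tested. Mrc2, a collagen receptor of fibroblasts, fell 1.72-fold, a call lost when any 1 library other than AXL KO 2 was left out (edgeR Benjamini-Hochberg adjusted p of 0.0775 to 0.148) or with the stricter filter on low counts (0.0523). Clec4n was called lower without AXL KO 2 (-1.33) and Clec7a higher without AXL KO 3 (1.05).

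**Figure D4:**
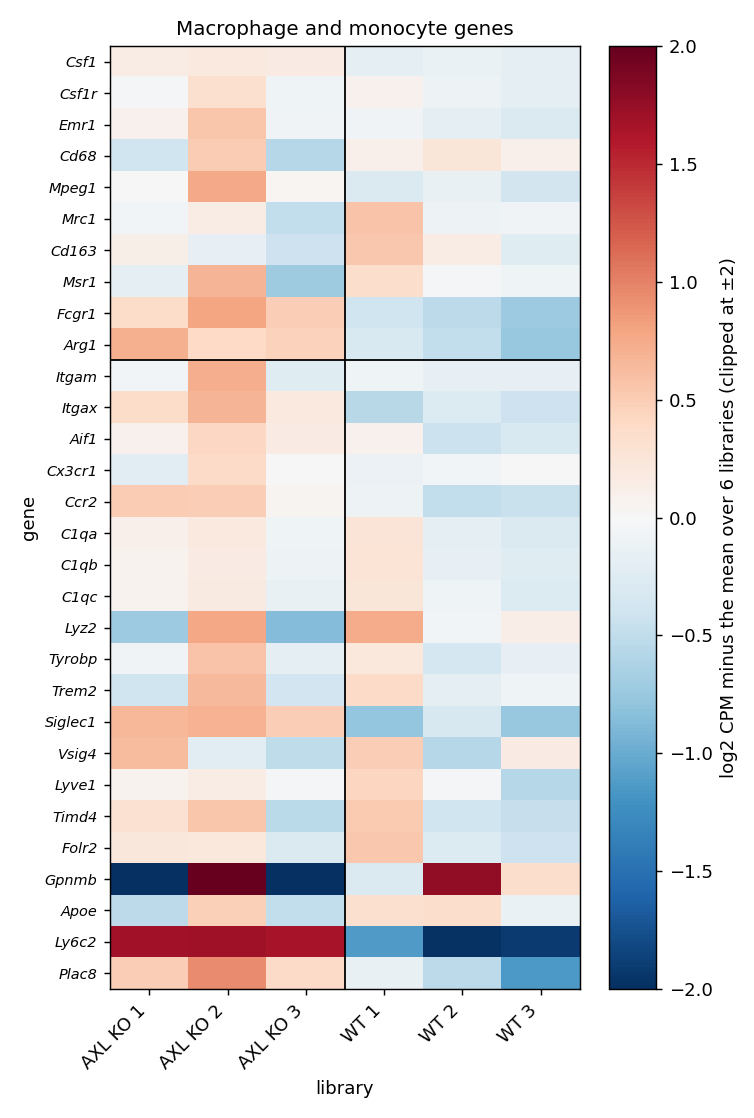
Log2 CPM minus the gene's mean over the 6 libraries, clipped at 2 in either direction, for the 10 macrophage genes (above the line) and 20 other macrophage and monocyte genes, AXL KO libraries left and WT libraries right. Ly6c2 and Siglec1 separate the groups, whereas Gpnmb, Apoe and Lyz2 are high in AXL KO 2 and low in the other AXL KO libraries.

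Genes used to mark activation states moved in both directions. Of 11 tested genes on the alternative activation list, Arg1 and Ccl22, a chemokine of dendritic cells and macrophages, rose. Ccl22 was at 1.83 ± 0.317 CPM in AXL KO grafts and 0.455 ± 0.0664 CPM in WT grafts (SD, n = 3 each). Tgm2, a transglutaminase, fell 1.41-fold and Il4ra, the interleukin 4 receptor, 1.17-fold. The list's median log2 fold change, 0.43, was that of Ccl24, which did not pass (edgeR Benjamini-Hochberg adjusted p = 0.677). Ccl24 was at 1.70, 0.278 and 0.197 CPM in AXL KO grafts and at 0.589, 0.332 and 0.663 CPM in WT grafts. The call of Il4ra was lost when any 1 library other than AXL KO 2 was left out (edgeR Benjamini-Hochberg adjusted p of 0.0581 to 0.195), and with no filter (0.0816) or DESeq2 (0.0503), and Ccl17 was called higher without AXL KO 2 (0.96). Of 9 tested genes on the classical activation list, Il12b, the shared subunit of interleukins 12 and 23, rose 7.99-fold and Cd86, a costimulatory ligand, 1.72-fold. Il23a, the other subunit of interleukin 23, fell to 1.52 ± 0.608 CPM in AXL KO grafts, against 8.45 ± 2.17 CPM in WT grafts (SD, n = 3 each). Ptgs2, the inducible cyclooxygenase, fell 2.65-fold, a call lost without AXL KO 1, AXL KO 3, WT 1 or WT 3 (edgeR Benjamini-Hochberg adjusted p of 0.0561 to 0.0886). The median of that list was -0.0041 on the log2 scale, and Ido1 had no count in any library. Il12b was low, at 0.679 ± 0.141 CPM in AXL KO grafts and 0.0804 ± 0.0378 CPM in WT grafts (SD, n = 3 each).

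Of 20 other macrophage and monocyte genes 5 rose and none was called lower, and the list's median was 0.18 on the log2 scale. Ly6c2, a mark of inflammatory monocytes, rose 11.3-fold, to 4.52 ± 0.0531 CPM in AXL KO grafts, against 0.401 ± 0.163 CPM in WT grafts (SD, n = 3 each), and its near-identical copy Ly6c1 leaves the split of reads uncertain. Siglec1, a sialic acid-binding lectin of macrophages, rose 2.34-fold, Plac8, a gene of monocytes and other leukocytes, 2.28-fold, Itgax, the CD11c integrin chain, by 0.85 on the log2 scale, and Ccr2, the receptor that brings monocytes into tissue, 1.63-fold. T cell and NK cell markers moved in the same direction: all 5 of each list rose, with summed levels of 13.5 to 15.8 CPM and 12.6 to 16.0 CPM in AXL KO grafts and 2.87 to 5.12 CPM and 1.15 to 1.79 CPM in WT grafts. Their part in these changes was not tested. Without AXL KO 2, 3 genes of the list were called lower, the lysozyme Lyz2 (-1.11), the lipoprotein Apoe (-0.70) and the transmembrane glycoprotein Gpnmb (-3.28). Of 7 monocyte chemoattractants Ccl12, a CCR2 ligand of the mouse, rose 2.37-fold and Cx3cl1, the ligand of CX3CR1, fell 1.36-fold. Ccl2 joined Ccl12 without WT 1 (0.64).

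Of 12 lysosome genes, a group to which Cd68 belongs, 3 rose, and the list's median was 0.03 on the log2 scale. The protease Ctss rose 1.78-fold, to 250 ± 62.3 CPM in AXL KO grafts, against 140.0 ± 17.0 CPM in WT grafts (SD, n = 3 each), while Lipa, the acid lipase, and Grn, the progranulin gene, rose 1.28-fold and 1.16-fold. Lipa and Grn both lost their calls without AXL KO 2 (edgeR Benjamini-Hochberg adjusted p of 0.0844 and 0.0723), without WT 1 (0.0626 and 0.0508), without WT 3 (0.112 and 0.142) and with upper-quartile scaling (0.0556 and 0.0536). Lipa also lost it without WT 2 (0.0824), and Grn without AXL KO 1 (0.0867) and AXL KO 3 (0.109). Without AXL KO 2, Cd68 and the proteases Ctsb (-0.41) and Ctsl (-0.76) were called lower. Of the other cell types, several defining markers of B cells and neutrophils were at or near 0. Ms4a1 and Cd79a had 11 and 17 counts over all libraries, Camp had none, and Ly6g had 1. Of the mast cell markers Fcer1a had no count, and Cpa3, Mcpt4, Tpsb2 and Cma1 had 43, 45, 41 and 36 counts over all libraries. None of the mast cell markers passed the filter on low counts. The 4 tested neutrophil markers, of which Csf3r held most of the counts, summed to 4.53 to 7.69 CPM in AXL KO grafts and 3.82 to 9.06 CPM in WT grafts, with a median of -1.04 on the log2 scale. Among them Cxcr2 was called lower, a call lost without AXL KO 1, AXL KO 3, WT 1 or WT 3 (edgeR Benjamini-Hochberg adjusted p of 0.0997 to 0.147) and under DESeq2 (0.116). Tumour epithelial markers summed to 11138 to 13255 CPM in AXL KO grafts and 10924 to 12282 CPM in WT grafts. Erbb2 predominated in that sum, and its counts do not tell the transgene from the endogenous gene. Of the 5 tested epithelial markers, the 3 markers Epcam, Krt8 and Krt18 fell 1.44-fold, 1.36-fold and 1.52-fold. Erbb2 rose 1.28-fold and Cdh1 did not pass, and the list's median was -0.44 on the log2 scale. The call of Erbb2 was lost without AXL KO 1, AXL KO 3, WT 1 or WT 3 (edgeR Benjamini-Hochberg adjusted p of 0.0717 to 0.103). The 6 fibroblast markers summed to 759 to 1383 CPM in AXL KO grafts and 1108 to 1738 CPM in WT grafts, with none of the 6 called by edgeR. Without AXL KO 2, the collagen genes Col1a1 (-0.81) and Col1a2 (-0.85) were called lower, as was Thy1 (-0.43) without WT 3. Pericyte markers (4 of 4) and red cell markers (5 of 5) fell, as the endothelial markers did, with summed levels of 91.1 to 154 CPM and 152 to 237 CPM in AXL KO grafts and 219 to 235 CPM and 646 to 1021 CPM in WT grafts. The pericyte marker Cspg4 lost its call without AXL KO 1, AXL KO 3 or WT 2. Its edgeR Benjamini-Hochberg adjusted p was then 0.0539 to 0.0731.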

How the data were processed

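RNA-seq counts were analysed for 6 tumour grafts, grouped by the sample titles. Per the submitters' processing notes, CASAVA 1.8, TopHat2 2.0.10, HTSeq 0.5.3, DESeq2 1.4.5 and the build GRCm38 were used. Their settings, strand included, are not given in the sources used. The authors deposited raw counts per gene for each library, with 5 rows that name no gene. Of all counted lines, not unique alignments made up 25.7% to 26.9% in AXL KO libraries and 27.3% to 29.0% in WT libraries. No feature made up 5.55% to 6.88% and 4.41% to 5.37%, and ambiguous 0.717% to 0.896% and 0.993% to 1.09%, in the same order. These shares did not overlap between the groups. The rows that name no gene stayed out of library sizes and tests. The authors also deposited a table with a scaled signal per library, equal to the count divided by a size factor within 5.15e-10, log2 fold changes, test scores (not used) and p-values. Their log2 fold changes were turned round to AXL KO over WT.

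Counts were filtered with filterByExpr (minimum count 10, minimum total 15) and compared in R 4.3.3 with edgeR 4.0.16 (quasi-likelihood test), TMM, group as the only term, 4 residual degrees of freedom and Benjamini-Hochberg adjustment over 14850 genes, at 0.05. The biological coefficient of variation was 0.117. Standard errors come from the fold change and its F statistic. An exact permutation test of 3 against 3 cannot go below 0.1. Positions and exon lengths come from GENCODE M21 on GRCm38, which names F4/80 differently, so genes were matched by identifier. Likeness used log2 CPM with a prior count of 2.

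The members and lists were chosen with earlier results of these data known. Named genes are the members, up to 4 genes per list with the smallest p, the 3 nearest genes per member and Axl. Other list genes were chosen for naming after their values were seen, most of them because leaving out a library changed their call. Some list genes are not reported here. Alternatives were DESeq2 1.42.0, limma 3.58.1 with voom, other size factors, other filters, an adjusted p of 0.01, a replicate block and each library left out. The steps were tested on simulated counts in which far fewer genes changed than were called here. That test does not cover data with so many changed genes. Precision is limited by 3 libraries per group and by counting.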

Additional observations from a re-analysis of the deposited data

How the results depend on the processing

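Csf1, Arg1 and Fcgr1 kept their direction and their call in all 13 alternative fits, and the number of members called higher was 3 to 5 when each library was left out in turn. Members called lower were 0 to 1 when a library was left out, the 1 being Cd68 without AXL KO 2. Mpeg1 and Emr1 lie near the threshold, as the values beside them show, and the cause was not tested. The log2 fold change of Msr1 ran from -0.51 to 0.24 with a library left out and was above 0 without AXL KO 1 (0.07), AXL KO 3 (0.24) or WT 1 (0.11). Over all genes, 1610 were called higher and 1464 lower at an adjusted p under 0.01, against 2835 and 2717 at 0.05, and with a library left out 1733 to 2828 were called lower. At 0.01 Mpeg1 was no longer called. Equal replicate numbers did not deviate together (correlations of -0.06, -0.13 and 0.09). With 3 libraries per group these values cannot show whether equal numbers shared a batch or day, which the labels do not state. With the replicate numbers as a replicate block, 4 members were called higher, 0 lower, and 2458 genes higher and 2373 lower. Among the listed genes, Lipa, Grn, Il4ra, Erbb2 and Cxcr2 then lost their calls (edgeR Benjamini-Hochberg adjusted p of 0.0581 to 0.102), Nos2 was called lower (0.0408) and Retnla higher (0.0273). At 3 libraries per group, differences of members with a wide spread, such as Msr1 and Cd68, were not detectable below the size of their intervals.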

Other observations

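The library AXL KO 2 was set against the other AXL KO libraries over 11388 genes whose log2 CPM averaged 2 or more. This search was made after the values of AXL KO 2 had been seen. The 3 widest gaps with AXL KO 2 above the other AXL KO libraries were those of Gpnmb, Mmp12 and Spp1. Gaps in the other direction are not reported here. Gpnmb, a transmembrane glycoprotein, was at 1.35, 55.2 and 1.48 CPM in AXL KO grafts and at 6.07, 25.6 and 9.52 CPM in WT grafts. Mmp12, the macrophage elastase, was at 5.45, 58.1 and 4.04 CPM in AXL KO grafts and at 12.0, 39.4 and 25.5 CPM in WT grafts. Spp1, the osteopontin gene, was at 76.4, 604 and 61.9 CPM in AXL KO grafts and at 727, 838 and 634 CPM in WT grafts. For each of these, AXL KO 1 and AXL KO 3 lay below every WT library, and AXL KO 2 lay above every WT library for Gpnmb and Mmp12 and below them for Spp1. The genes were picked for this gap, so the values are a description.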
